A study of Mus musculus with 12 samples.

Results

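Expression was compared between LPS-treated bone marrow-derived macrophages that lack the nuclear receptor ERRα (ERRα-/-, 3 arrays) and LPS-treated macrophages that carry it (ERRα+/+, 3 arrays). The arrays were chosen by their titles, which give genotype and treatment, and they are 6 of the 12 arrays of the study. The other 6 arrays hold the same genotypes with PBS, the solvent, and enter only where a difference under LPS is set against the difference without LPS. All cells came from male C57BL6 mice of 6 to 8 weeks and were grown for 5 to 7 days with M-CSF. The LPS dose was 100 ng/mL, and how long it lasted is not stated in the labels. These state neither which stretch of Esrra is missing in the ERRα-/- mice nor whether the replicates came from separate mice. The p-values therefore measure only the spread between these samples, which may be technical.

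ERRα, the product of Esrra, is an orphan nuclear receptor that binds DNA at a half-site extended at its 5′ end and works with the PGC-1 coactivators. It is best known for driving genes of oxidative phosphorylation, the tricarboxylic acid cycle and fatty acid oxidation in tissues of high energy demand. In macrophages, LPS engages TLR4, which signals through NF-kB to cytokine and chemokine genes and through the adaptor TRIF to type I interferon, while A20 (Tnfaip3) and other inhibitors limit the signal. Macrophages also make and take up cholesterol under the control of the transcription factor SREBP2 and export it under the control of LXR.

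A level is the log2 processed signal of a probe minus the 75th percentile of its array, and a difference is ERRα-/- minus ERRα+/+ on that log2 scale, given ± its standard error (SE) with n = 3 arrays per genotype. Slide was a term of the fit, because replicate 1 of each group lay on slide 1 and replicates 2 and 3 on slide 2. On the 6 LPS arrays, 45.3% to 54.0% of probes were well above background. The first principal component of these arrays held 72.4% of the variance and parted the slides, and the second held 14.9% and parted the genotypes. Replicates 2 and 3 lay close together, with a median absolute difference of 0.0742 in ERRα+/+ cells and of 0.0589 among the ERRα-/- arrays (5470 genes), whereas replicate 1 differed from them by 0.391 to 0.424.

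The deleted gene was examined first. Esrra stood at 5.87, 6.25 and 6.36 in ERRα+/+ replicates 1 to 3 and at 4.40, 3.92 and 3.83 in ERRα-/- replicates 1 to 3. All ERRα-/- arrays lay below all ERRα+/+ arrays, yet the probe remained well above background on all of them. The difference of -2.11 ± 0.21 passed the test (adjusted p = 0.011), with -1.47 on slide 1 and -2.43 on slide 2. If this probe lies outside the missing stretch it says nothing of the deletion, and its place relative to that stretch is unknown. Of the 15 genes on each side of Esrra in the RefSeq order, 16 of the 18 on the array were tested and 0 were called, with a median difference of 0.004. At an unadjusted p under 0.05, 2 of these 16 differed, Rasgrp2 (-0.49 ± 0.12, adjusted p = 0.0569) and Ppp1r14b (-0.32 ± 0.09, adjusted p = 0.0792). In other fits some of the 16 were called. With normexp background correction 2 fell, as did 2 with all 12 arrays and a slide term under each treatment, and within slide 2 1 rose and 1 fell. Rasgrp2 was called lower within slide 2 (limma, -0.63, adjusted p = 0.0232) and under PBS (limma, -0.66, adjusted p = 0.00997).

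Of 12257 genes tested, 785 (6.4%) were higher and 872 (7.11%) lower in ERRα-/- macrophages under LPS at an adjusted p under 0.05, which is 13.5% in all. Most of these differences were small: their median size was 0.53, and 100 of the risen and 92 of the fallen genes differed at least 2-fold. All 1657 called genes had the same sign on both slides. The ERRα-/- arrays lay wholly above the ERRα+/+ arrays for 577 genes (4.71%) and wholly below for 905 genes (7.39%), and 197 and 404 of these were also called. With the replicate number as a block, 301 genes rose and 307 fell, and 591 of those 608 were among the 1657. The block ended the call of 58 of the 137 called genes that the naming rule selected, with adjusted p-values of 0.05 to 0.0985. Without ERRα-/- replicate 2 or ERRα+/+ replicate 3 no gene was called (limma; 2944 and 3160 genes at an unadjusted p under 0.05), without ERRα+/+ replicate 2 40 rose and 22 fell, and without ERRα-/- replicate 3 17 rose and 10 fell. With replicates 2 and 3 averaged, an alternative added after the data had been seen, no gene was called (limma; 2031 at an unadjusted p under 0.05). Without replicate 1 of either genotype, which leaves the comparison within slide 2, 1094 genes rose and 1057 fell (limma). Of the 1657 calls 1325 remained in these 2 fits. None of the 137 genes stayed called in every left-out fit, so no call below held whichever array was left out.

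**Figure D1:**
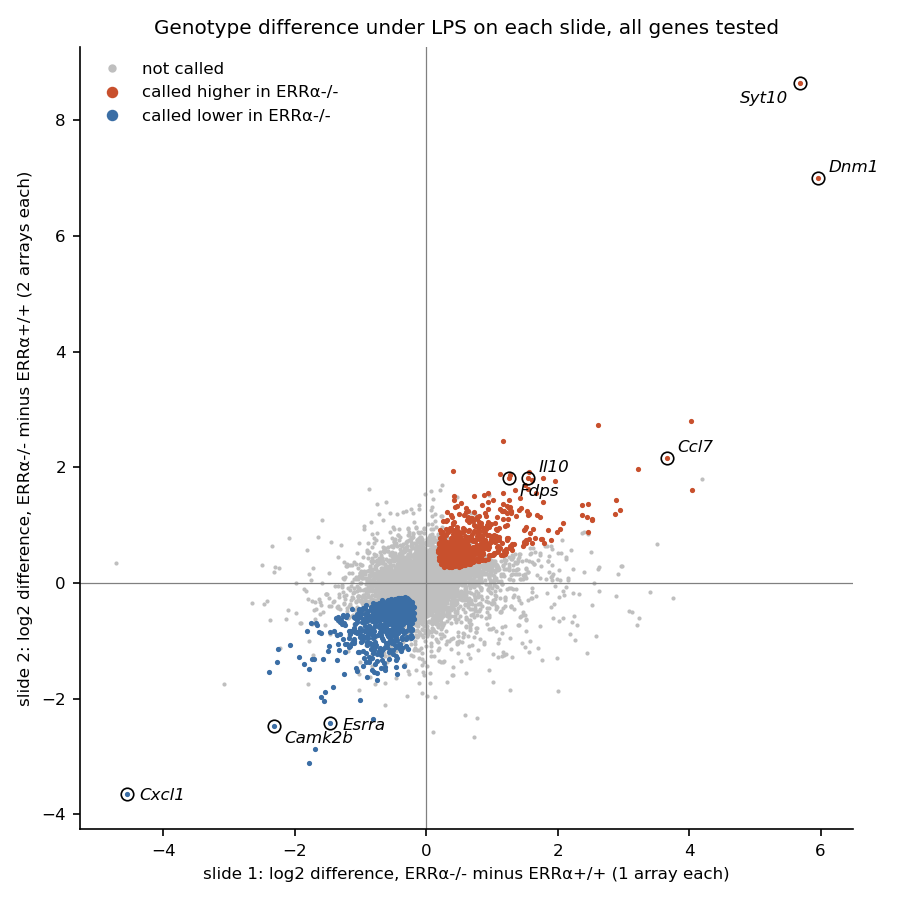
Genotype difference under LPS on slide 1 (x axis, 1 array per genotype) and slide 2 (y axis, 2 arrays per genotype), in log2 units, for the 12257 genes tested; red and blue points are the 785 genes called higher and the 872 called lower in ERRα-/- cells, and rings mark labelled genes. Called genes lie to the lower left and upper right of the origin, Syt10 and Dnm1 lie far above all others and Cxcl1 far below.

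The largest rises were those of 2 genes of membrane traffic. Syt10, which encodes a synaptotagmin, a calcium sensor of secretory vesicles, stood at 0.51, -4.20 and -3.50 in ERRα+/+ and at 6.20, 4.75 and 4.86 in ERRα-/- replicates 1 to 3. Its difference was 7.66 ± 0.63 (adjusted p = 0.00957), with the probe well above background on 2 of the 3 ERRα+/+ arrays, and under PBS it was 8.13. Dnm1, which encodes a dynamin that pinches vesicles from membranes, stood at -0.83, -3.06 and -3.07 against 5.13, 3.88 and 3.99. The arrays of the genotypes were far apart for both genes. The Dnm1 difference was 6.65 ± 0.22 (adjusted p = 0.00393), but a further probe of the same gene differed by 0.04, so the probes of Dnm1 disagreed.

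Among the other large rises were Slc28a2 (1.72 ± 0.08) and Slc28a2b (1.80 ± 0.10), which encode concentrative nucleoside transporters, and the interferon-inducible gene Ifi208 (1.83 ± 0.10), whose 3 further probes differed by 1.17 to 4.36. Prm1, a protamine gene, rose by 2.41 ± 0.50, Htra4, a serine protease gene, by 1.92 ± 0.30, Gm14548 by 2.03 ± 0.27 and Gm9733 by 1.82 ± 0.35. Kynu, which encodes the tryptophan-degrading enzyme kynureninase, rose by 1.68 ± 0.35, with 1 of 3 ERRα+/+ arrays well above background. Where a probe was well above background on no array of a genotype, only a lower bound can be given, computed against the lowest level of a probe well above background on each of those arrays. On that basis 1700061I17Rik was at least 5.36-fold and G530011O06Rik at least 2.6-fold higher in ERRα-/- cells. Both were kept for testing only through the ERRα-/- arrays. Their adjusted p-values (limma, 0.011 and 0.0072) come from levels that include those below background, so they do not test the bounds.

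Among the large falls beside the chemokine genes described below, Nrcam, a cell adhesion gene, was at least 3.33-fold lower. Cyp7b1, which encodes an oxysterol hydroxylase, was at least 2.5-fold lower. Both were kept for testing only through the ERRα+/+ arrays. Their adjusted p-values (limma, 0.0126 and 0.0241) again come from levels that include those below background and do not test the bounds. Rab4a, a GTPase gene of endosome recycling, fell by 2.48 ± 0.25 and Cd59a, an inhibitor of the complement membrane attack complex, by 1.59 ± 0.09. Cd59a stood at 0.62, 0.27 and 0.30 in ERRα+/+ and at -1.16, -1.26 and -1.15 in ERRα-/- cells, without overlap. Camk2b, which encodes a calmodulin-dependent kinase subunit, fell by 2.43 ± 0.23, while its further probe differed by -0.12. Slc12a5, a potassium chloride cotransporter gene, fell by 1.45 ± 0.23, while its further probe differed by 2.75. The RNA editing gene Adarb1 fell by 1.85 ± 0.23 and Klhl42 by 1.84 ± 0.41, each well above background on 1 of 3 ERRα-/- arrays. Mgarp, which encodes a mitochondrial outer membrane protein, fell by 1.67 ± 0.25 and the actin gene Actg2 by 1.51 ± 0.31 (2 of 3 ERRα-/- arrays well above background for each). Gdf3, a growth factor gene of the TGF-β family, fell by 1.50 ± 0.16, while its further probe differed by -0.56.

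Tnfaip3, the gene of A20, stood at 6.07, 7.91 and 7.98 in ERRα+/+ and at 6.16, 8.36 and 8.36 in ERRα-/- cells. Each ERRα-/- array was above the ERRα+/+ array of the same number, and the groups overlapped through slide 1. The difference of 0.31 ± 0.09 did not pass the test (adjusted p = 0.0853), and within slide 2 it was 0.42 (adjusted p = 0.0317). Of 33 genes of the TLR4 receptor complex and its signalling, 2 rose and 2 fell (6.06% each, near the 6.4% and 7.11% of all genes), and the median difference was 0.03, against 0.001 over all genes. Tlr3, the receptor of double-stranded RNA, rose by 0.97 ± 0.07 and the adaptor gene Myd88 by 0.35 ± 0.07, while Ikbkg, the regulatory subunit of the IKK complex, fell by 0.48 ± 0.10 and Tlr8 by 0.38 ± 0.08. The receptor genes Tlr4 (0.30), Ly96 (0.07) and Cd14 (0.16) were not called.

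Inhibitors that act back on TLR and NF-kB signals numbered 37, of which 8 rose (21.6%) and 0 fell. Over all genes 6.4% rose and 7.11% fell, and the list median was 0.06. Dusp1, the phosphatase that switches off the MAP kinases p38 and JNK, stood at 2.07, 4.77 and 4.93 in ERRα+/+ and at 3.09, 6.26 and 6.30 in ERRα-/- cells. The slides differed more than the genotypes, so the groups overlapped, yet ERRα-/- was higher in 3 of 3 pairs of the same number. Dusp1 rose by 1.29 ± 0.11 (adjusted p = 0.00957). Zfp36 and Zfp36l1, which encode proteins that destabilize cytokine mRNAs, rose by 0.74 ± 0.08 and 0.63 ± 0.10, and Tnip3, an A20-binding inhibitor gene, by 0.59 ± 0.11. Nfkbia, the gene of IκBα, differed by 0.16 and was not called. With the replicate block 3 of the 37 rose, and after quantile normalization 4 did.

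The classical LPS cytokines were mixed. Of 22 inflammatory cytokine genes 9 rose (40.9%) and 3 fell (13.6%), against 6.4% and 7.11% of all genes, with a median of 0.33. Tnf stood at 7.98, 8.18 and 8.30 in ERRα+/+ and at 7.80, 8.37 and 8.31 in ERRα-/- cells, and these values overlapped. The differences of Tnf (0.01 ± 0.09, adjusted p = 0.956), Il6 (0.20 ± 0.16, adjusted p = 0.432) and Il1b (0.29 ± 0.20, adjusted p = 0.362) were not called. These estimates do not show that the genotypes express them alike.

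Within this list the largest rises were those of Il10 and its relative Il19. Il10, the main deactivating cytokine of macrophages, stood at -1.15, 2.04 and 1.90 in ERRα+/+ and at 0.40, 3.85 and 3.72 in ERRα-/- cells. Within each slide the ERRα-/- arrays were the higher ones, and its difference was 1.72 ± 0.10 (adjusted p = 0.00713), between 1.66 and 1.81 with any array left out. Il10 was also higher in ERRα-/- cells under PBS, by 1.41, and its difference between treatments was not called. Under LPS Il19 rose by 1.67 ± 0.14 and Il1rn, the antagonist of the interleukin 1 receptor, by 1.22 ± 0.07. Tnfsf10, which encodes the death ligand TRAIL, rose by 0.98 ± 0.15. On the other side, Csf2, the gene of GM-CSF, stood at -2.77, -1.25 and -1.29 in ERRα+/+ and at -3.78, -3.28 and -3.30 in ERRα-/- cells, near the lower end of measurable signal (2 of 3 ERRα-/- arrays well above background). It fell by 1.68 ± 0.21 (adjusted p = 0.0154), Il1a fell by 0.67 ± 0.13 and Il12a, the p35 subunit of interleukin 12, by 0.51 ± 0.09.

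**Figure D2:**
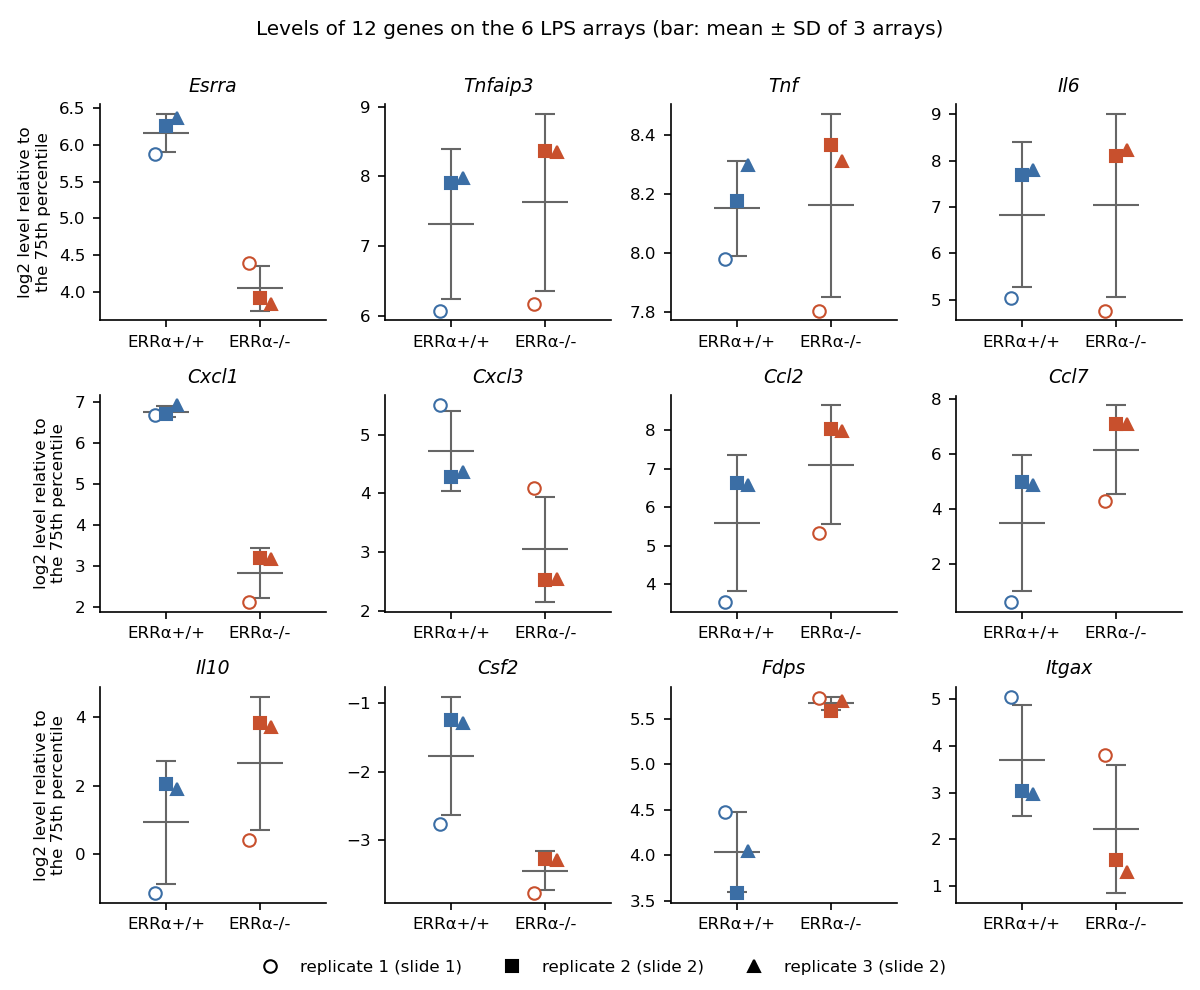
Log2 level relative to the array's 75th percentile (y axis) of 12 genes on the 3 ERRα+/+ and 3 ERRα-/- LPS arrays; the open circle is replicate 1 (slide 1), the filled square and triangle are replicates 2 and 3 (slide 2), and bars give the mean ± SD of 3 arrays. Cxcl1 falls from between 6.68 and 6.93 to between 2.13 and 3.19, while Tnf and Il6 overlap between genotypes, and for Ccl2, Ccl7 and Il10 the genotypes part only within a slide.

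Chemokine genes were called in both directions. Of 23 chemokine genes 5 rose (21.7%) and 6 fell (26.1%), against 6.4% and 7.11% of all genes, with a median of -0.01. Cxcl1, a ligand of the neutrophil receptor CXCR2, stood at 6.68, 6.72 and 6.93 in ERRα+/+ and at 2.13, 3.19 and 3.17 in ERRα-/- cells. It was the lowest-lying difference of all genes tested, 15.4-fold, and no array of a genotype came near the other genotype. The difference was -3.94 ± 0.20 (adjusted p = 0.00713), between -4.09 and -3.64 with any array left out, although the call ended without ERRα-/- replicate 2 (adjusted p = 0.0695). Under PBS Cxcl1 differed by -2.46, with 1 of 3 ERRα-/- PBS arrays well above background, and its difference between treatments was not called.

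Other ligands of CXCR2 differed in size. Cxcl3 stood at 5.50, 4.28 and 4.36 in ERRα+/+ and at 4.08, 2.52 and 2.54 in ERRα-/- cells, without overlap, and fell by 1.67 ± 0.10 (adjusted p = 0.00713). Cxcl5 fell by 0.88 ± 0.20 and Ppbp by 1.03 ± 0.12. Cxcl2, a close relative of Cxcl1 and Cxcl3, stood at 5.42, 5.67 and 6.22 against 4.79, 6.17 and 6.37, and its difference of 0.00 ± 0.25 was not called. Cx3cl1, the membrane-bound chemokine fractalkine, fell by 1.14 ± 0.15. Ppbp and the fallen Pf4 (-0.65 ± 0.13) are platelet chemokines and are also counted among the megakaryocyte markers below.

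The risen chemokines were ligands of monocyte and T cell receptors. Ccl2, the main ligand of CCR2, stood at 3.54, 6.63 and 6.58 in ERRα+/+ and at 5.32, 8.02 and 7.97 in ERRα-/- cells. Slide 1 was lower than slide 2 for both genotypes, and within each slide the ERRα-/- arrays lay above. Ccl2 rose by 1.52 ± 0.10 (adjusted p = 0.00768), with 1.78 on slide 1 and 1.39 on slide 2. Ccl7 stood at 0.63, 4.97 and 4.88 against 4.30, 7.09 and 7.06 and rose by 2.66 ± 0.31 (adjusted p = 0.0141), Ccl12 rose by 1.73 ± 0.24 and Ccl8 by 1.60 ± 0.10. Ccl8 was the only one of these 4 whose arrays did not overlap between genotypes. Cxcl9, an interferon-γ-inducible ligand of CXCR3, rose by 1.1 ± 0.20, and Cxcl10 (0.41), Ccl3 (0.12), Ccl4 (0.39) and Ccl5 (0.14) were not called.

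Of 35 inflammatory effector and receptor genes 3 rose (8.57%) and 4 fell (11.4%), against 6.4% and 7.11% of all genes, with a median of 0.14. Edn1, the gene of the vasoconstrictor endothelin 1, rose by 1.57 ± 0.30 and the collagenase gene Mmp13 by 1.05 ± 0.08, as did Casp4, the sensor of intracellular LPS (0.55 ± 0.09). Mmp9, a gelatinase gene also expressed by osteoclasts, stood at 2.09, 0.09 and -0.19 in ERRα+/+ and at 0.23, -1.38 and -1.52 in ERRα-/- cells. It was lower in 3 of 3 pairs, and fell by 1.56 ± 0.14 (adjusted p = 0.00957). Slc7a11, the cystine importer, fell by 1.11 ± 0.12, Vcam1 by 0.86 ± 0.19 and the scavenger receptor gene Marco by 0.33 ± 0.07. Nos2 (0.23), Ptgs2 (0.39) and Acod1 (0.14) were not called, and the calls of Edn1 and Vcam1 ended after quantile normalization (adjusted p = 0.0619 and 0.0552).

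Interferon-stimulated genes were higher in ERRα-/- cells. Of 43 such genes 27 rose (62.8%) and 0 fell, against 6.4% and 7.11% of all genes. The median difference was 0.47, against 0.001 over all genes. In the fit on all 12 arrays with a slide term under each treatment, 34 of the 43 rose and 0 fell under PBS, with a median of 0.96. That fit called 11 of them higher under LPS, whereas the 27 come from the fit on the 6 LPS arrays. The PBS median lay above the LPS median, and the difference between these medians was not tested. Each slide gave a difference above 0 in 42 of the 43 under LPS, and 39 were higher in 3 of 3 pairs. For 6 of the 43 every ERRα-/- array lay above every ERRα+/+ array, where 4.71% of all genes lay wholly above. The number of risen genes depended on the fit, with 8 under the replicate block and 12 after quantile normalization. It was 1 with all 12 arrays and 1 slide block, and 0 to 22 with 1 array left out. The median lay between 0.34 and 0.52 over all alternatives. Iigp1, an interferon-inducible GTPase gene, stood at 2.33, 3.65 and 3.67 in ERRα+/+ and at 3.88, 4.92 and 4.76 in ERRα-/- cells and rose by 1.30 ± 0.10 (adjusted p = 0.00878). Its groups did not overlap, the lowest ERRα-/- array being that of slide 1. Irf8, a transcription factor of the monocyte lineage, stood at 4.99, 5.36 and 5.42 against 5.59, 6.71 and 6.54 and rose by 1.02 ± 0.15, also without overlap. Ifi44 rose by 1.09 ± 0.23 and the exonuclease gene Isg20 by 0.94 ± 0.18, calls that ended after quantile normalization (adjusted p = 0.0795 and 0.0597). Ifnb1, the gene of interferon-β, rose by 0.75 ± 0.14 without overlap, and Isg15 (0.49) was not called.

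Many members of this family carry the interferon-stimulated response element in their promoters, which the RefSeq windows show. A window runs from 250 bases before to 50 bases after the start site, and the element was searched on both strands as paired GAAA stretches with 2 free bases between them. It was found in 19 of the 34 interferon-stimulated genes with a window (55.9%) against 405 of 9844 tested genes with a window (4.11%). Among the risen members it was found in 14 of 22 (63.6%), and among those not called in 5 of 12 (41.7%). The family is known by this element, which was added to the search after the values had been seen. The 250 bases before the start sites of 3 risen members are shown in build GRCm38.p6, with the motif in capitals, because they let the element be seen beside the values: Ifit3 (chr19:34583279-34583528, plus strand, 0.69 ± 0.08) and Ifit1 (chr19:34640639-34640888, plus strand, 0.43 ± 0.08), whose products bind viral RNA, and Igtp (chr11:58199306-58199555, plus strand, 0.44 ± 0.09), a GTPase gene.
Ifit3: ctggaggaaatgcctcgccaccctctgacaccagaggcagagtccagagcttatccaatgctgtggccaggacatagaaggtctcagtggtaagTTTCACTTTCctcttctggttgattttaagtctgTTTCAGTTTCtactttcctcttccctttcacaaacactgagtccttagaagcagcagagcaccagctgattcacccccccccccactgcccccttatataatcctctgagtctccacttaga
Ifit1: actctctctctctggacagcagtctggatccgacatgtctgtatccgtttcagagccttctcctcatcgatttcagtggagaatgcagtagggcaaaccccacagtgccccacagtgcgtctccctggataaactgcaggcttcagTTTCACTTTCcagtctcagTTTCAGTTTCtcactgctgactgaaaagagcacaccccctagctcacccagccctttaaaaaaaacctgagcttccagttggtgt
Igtp: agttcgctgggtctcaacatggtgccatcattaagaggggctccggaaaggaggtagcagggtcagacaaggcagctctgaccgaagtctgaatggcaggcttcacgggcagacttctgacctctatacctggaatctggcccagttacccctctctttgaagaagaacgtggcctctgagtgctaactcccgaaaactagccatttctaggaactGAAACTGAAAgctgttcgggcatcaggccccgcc

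Cholesterol biosynthesis genes were higher in ERRα-/- cells. Of 24 tested genes of the pathway and its control 21 rose (87.5%) and 1 fell (4.17%), against 6.4% and 7.11% of all genes. The median difference was 1.15 (2-fold is 1 on this scale) against 0.001 over all genes. For 22 of the 24 the ERRα-/- array was the higher in 3 of 3 pairs, and for 16 every ERRα-/- array lay above every ERRα+/+ array, where 4.71% of all genes lay wholly above. The replicate block left 19 risen and 0 fallen, and single arrays left out gave 0 to 19 risen, while the median stayed between 0.95 and 1.28. Enzymes of the steps before squalene were among the risen genes. Fdps, farnesyl diphosphate synthase, stood at 4.47, 3.58 and 4.05 in ERRα+/+ and at 5.73, 5.58 and 5.69 in ERRα-/- cells, and rose by 1.63 ± 0.18 (adjusted p = 0.0121). Idi1, the isomerase just before it, stood at 3.21, 3.86 and 4.18 against 4.72, 5.70 and 5.72 and rose by 1.63 ± 0.11 (adjusted p = 0.00768). Both were higher in every ERRα-/- array than in any ERRα+/+ array, and both were 3.1-fold higher.

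Of the enzymes after squalene, the sterol desaturase gene Sc5d rose by 1.52 ± 0.12 and the lanosterol synthase gene Lss by 1.43 ± 0.13. Sc5d stood at 2.94, 3.17 and 3.48 in ERRα+/+ and at 4.28, 4.88 and 4.99 in ERRα-/- cells, again with no overlap. Insig1, the sterol-sensitive retention protein of SREBP, rose by 1.07 ± 0.19. The gene of SREBP2 itself, Srebf2, differed by 0.02 (adjusted p = 0.954), and Scap, its escort protein, fell by 0.50 ± 0.08 (adjusted p = 0.0235) from 4.57, 4.58 and 4.55 to 3.91, 4.17 and 4.13. The genotype difference was also present under PBS, where 13 of the 24 rose, with a median of 0.58. It was larger under LPS for Sc5d (1.03, adjusted p = 0.0366), Dhcr7, the reductase of the last step (1.11, adjusted p = 0.0292), and Pmvk, the phosphomevalonate kinase gene (0.95, adjusted p = 0.0166), by the test of that difference.

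**Figure D3:**
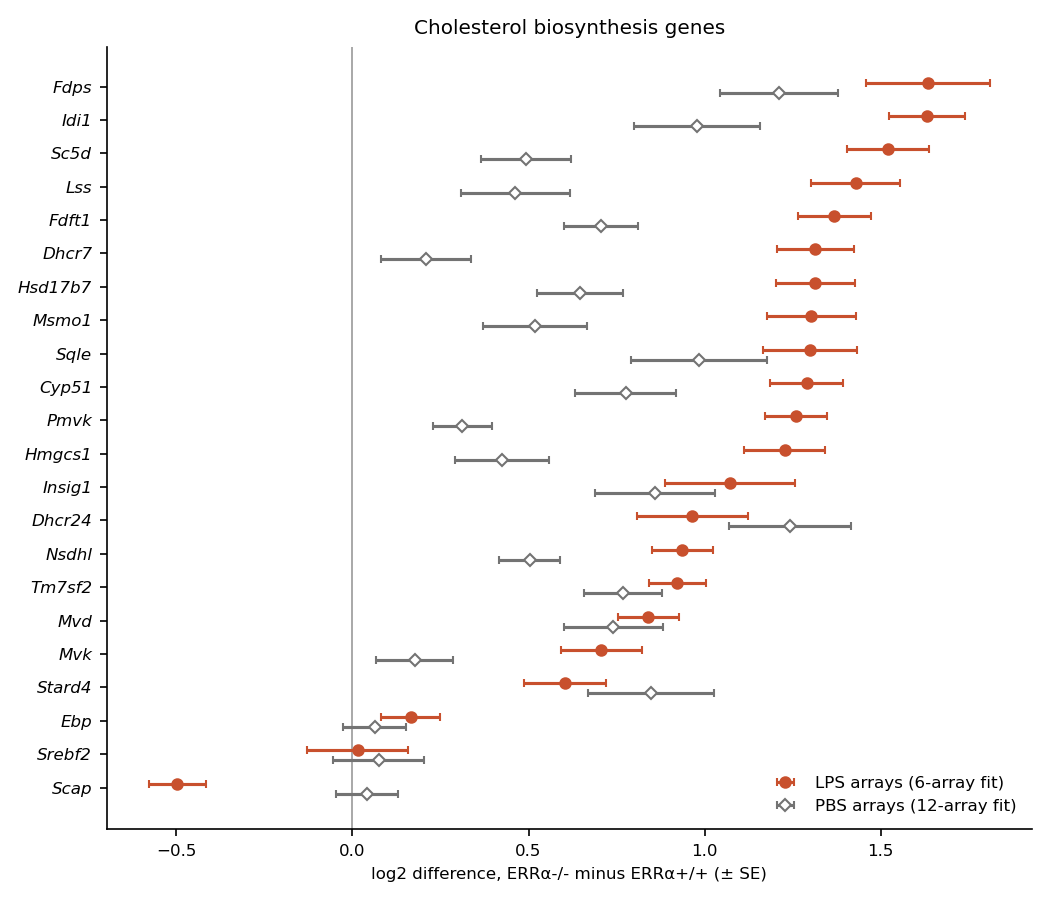
Log2 difference between ERRα-/- and ERRα+/+ cells (x axis, ± SE) for 22 cholesterol genes, on the LPS arrays (filled circles) and the PBS arrays (open diamonds). All shown but Ebp, Srebf2 and Scap were called higher under LPS, and most members lie further from 0 under LPS than under PBS.

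Genes of lipid handling beside this pathway moved in part. Of 22 LXR targets and lipid genes 6 rose (27.3%) and 0 fell, against 6.4% and 7.11% of all genes, with a median of 0.10. The fatty acid desaturase genes Scd2 and Scd1 rose by 1.63 ± 0.24 and 1.34 ± 0.24 (2 of 3 ERRα+/+ arrays well above background for Scd1), Fasn, the fatty acid synthase gene, by 0.79 ± 0.10 and Ch25h, which makes the oxysterol 25-hydroxycholesterol, by 1.25 ± 0.12. The cholesterol exporter genes Abca1 (-0.14) and Abcg1 (0.19) and the LXR gene Nr1h3 (-0.64) were not called. The sterol regulatory motif TCACNCCAC, likewise added later, lay in 1 of 17 windows of the cholesterol genes (5.88%) against 1.34% of all windows, and that 1 was Hmgcs1. Hmgcs1, the HMG-CoA synthase gene, stood at 4.58, 5.27 and 5.63 in ERRα+/+ and at 5.71, 6.68 and 6.78 in ERRα-/- cells, and rose by 1.23 ± 0.12 (adjusted p = 0.0107). Its window is the only one in the pathway that also held the relaxed ERR motif TNAAGGTCA, near its far end. The 250 bases before its start site (chr13:119690101-119690350, plus strand) are shown with the sterol motif in capitals in the upper line and the ERR motif, on the opposite strand, in the lower one.
Hmgcs1, sterol motif: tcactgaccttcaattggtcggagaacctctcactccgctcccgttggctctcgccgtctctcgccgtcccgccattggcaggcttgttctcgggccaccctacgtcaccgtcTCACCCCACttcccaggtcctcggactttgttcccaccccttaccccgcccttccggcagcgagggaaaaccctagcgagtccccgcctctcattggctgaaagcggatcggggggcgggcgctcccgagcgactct
Hmgcs1, ERR motif: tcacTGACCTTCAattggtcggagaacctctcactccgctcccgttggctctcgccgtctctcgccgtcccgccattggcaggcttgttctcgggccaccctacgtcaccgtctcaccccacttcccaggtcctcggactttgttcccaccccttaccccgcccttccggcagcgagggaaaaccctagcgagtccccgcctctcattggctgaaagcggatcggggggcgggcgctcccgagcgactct

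Energy metabolism is the best known domain of ERRα. Of 75 oxidative phosphorylation genes 0 rose and 0 fell (limma), with a median of -0.02 and a range from -0.40 to 0.38. At an unadjusted p under 0.05, 9 of the 75 differed, and after quantile normalization 3 fell. In the fit on all 12 arrays with a slide term under each treatment 1 rose under LPS. The members furthest from 0 were Cyc1, a subunit of complex III (-0.40 ± 0.17, adjusted p = 0.17), and Cycs, cytochrome c (0.38 ± 0.10, adjusted p = 0.0701). Of 18 genes documented as ERR targets 0 rose and 1 fell (5.56%, against 7.11% of all genes), with a median of -0.12. At an unadjusted p under 0.05, 8 of the 18 differed, 11 were lower in 3 of 3 pairs, and 3 fell after quantile normalization or with normexp background correction. With normexp 1 also rose, and within slide 2 3 rose and 1 fell. The 1 called lower by the main fit was Idh3a, a subunit of isocitrate dehydrogenase in the tricarboxylic acid cycle. It stood at 2.82, 3.15 and 3.09 in ERRα+/+ and at 2.63, 2.56 and 2.64 in ERRα-/- cells. The groups did not overlap, but the difference of -0.41 ± 0.10 lay at the threshold (adjusted p = 0.0498) and was not called after quantile normalization (0.0558).

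Other mitochondrial lists are set against the 6.4% of all genes called higher and the 7.11% called lower. Of 28 genes of the tricarboxylic acid cycle and pyruvate entry 1 rose and 1 fell (3.57% each, median -0.05), of 29 fatty acid oxidation genes 2 and 2 (6.9% each, median -0.14), and of 31 mitochondrial ribosome genes 0 and 2 (6.45% lower, median -0.05). After quantile normalization 0 fatty acid oxidation genes rose and 6 fell, and with normexp background correction 2 rose and 6 fell. Within slide 2 the balance was the other way, with 5 risen and 1 fallen. Pdk3, a kinase that blocks pyruvate entry, rose by 0.53 ± 0.11. Cd36, a fatty acid and lipoprotein receptor gene, fell by 0.61 ± 0.13 without overlap and Acads, an acyl-CoA dehydrogenase gene, by 0.38 ± 0.08, while Acaa1a and Acsl4 rose by 0.49 ± 0.11 and 0.44 ± 0.10. The ribosomal genes Mrps35 and Mrpl12 fell by 0.48 ± 0.07 and 0.44 ± 0.10. Of 16 genes of the ERR family and its coactivators, 2 rose (Ncoa1 by 0.49 ± 0.10 and the deacetylase gene Sirt1 by 0.39 ± 0.08) and 2 fell (Esrra and Tfb2m, a mitochondrial transcription factor gene, by 0.33 ± 0.07). Tfam (-0.01), Nrf1 (-0.06) and Ppargc1b (0.07) were not called.

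Of 23 genes of glycolysis and lactate export 1 rose (4.35%) and 4 fell (17.4%), against 6.4% and 7.11% of all genes, with a median of -0.17. At an unadjusted p under 0.05, 14 of the 23 differed, and 10 fell after quantile normalization, 8 with normexp background correction and 2 with the replicate block. Within slide 2, 4 rose and 4 fell. In this list the ERRα-/- arrays lay wholly below for 8 of the 23 where 7.39% of all genes did. Pfkl, the liver-type phosphofructokinase, stood at 2.31, 2.62 and 2.54 in ERRα+/+ and at 1.73, 1.85 and 1.62 in ERRα-/- cells and fell by 0.75 ± 0.10 (adjusted p = 0.0164). No ERRα-/- array reached the ERRα+/+ range. Slc16a3, the lactate exporter, fell by 0.62 ± 0.09, Tpi1 by 0.45 ± 0.09 and Gpi1 by 0.39 ± 0.08. Pfkfb3, which makes the allosteric activator of phosphofructokinase, went the other way, from 3.79, 7.16 and 7.20 to 4.64, 7.87 and 7.80 (0.73 ± 0.08, adjusted p = 0.012). It was higher in 3 of 3 pairs.

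The ERR response element was searched in the same promoter windows, on both strands. The strict form TCAAGGTCA was found in 36 of 9844 tested genes with a window (0.366%), in 0 of 682 genes that fell and in 1 of 620 that rose (0.161%). The relaxed form TNAAGGTCA was found in 98 windows (0.996%), in 6 of the 682 (0.88%) and in 8 of the 620 (1.29%). In the oxidative phosphorylation genes 3 of 63 windows held it (4.76%), in the documented targets 0 of 15, and no match says only that these letters are not in this window. Genes that fell and held the relaxed form included Jdp2, a repressor gene of the AP-1 family (-0.79 ± 0.09), Igf1r, the receptor of insulin-like growth factor 1 (-0.53 ± 0.09), and Nhp2, a ribonucleoprotein gene (-0.32 ± 0.07). The glycolytic gene Tpi1 held it after its start site. Msrb2, a mitochondrial methionine sulfoxide reductase gene, rose by 0.68 ± 0.16 and held the strict form. A match is a description of letters and not a binding site. The bases before the start site of Jdp2 (chr12:85599166-85599415, plus strand), Igf1r (chr7:67952007-67952256, plus strand) and Msrb2 (chr2:19371386-19371635, plus strand) are shown to place the motif, in capitals, in genes of either direction.
Jdp2: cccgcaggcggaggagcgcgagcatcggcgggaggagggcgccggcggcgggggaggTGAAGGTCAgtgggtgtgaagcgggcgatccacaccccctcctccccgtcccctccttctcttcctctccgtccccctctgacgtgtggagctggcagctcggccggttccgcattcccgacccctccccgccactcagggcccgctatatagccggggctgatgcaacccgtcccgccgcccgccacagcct
Igf1r: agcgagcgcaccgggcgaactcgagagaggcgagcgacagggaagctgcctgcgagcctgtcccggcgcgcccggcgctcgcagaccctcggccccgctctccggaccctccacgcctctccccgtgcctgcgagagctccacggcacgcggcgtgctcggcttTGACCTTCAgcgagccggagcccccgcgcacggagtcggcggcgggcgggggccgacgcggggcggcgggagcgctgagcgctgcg
Msrb2: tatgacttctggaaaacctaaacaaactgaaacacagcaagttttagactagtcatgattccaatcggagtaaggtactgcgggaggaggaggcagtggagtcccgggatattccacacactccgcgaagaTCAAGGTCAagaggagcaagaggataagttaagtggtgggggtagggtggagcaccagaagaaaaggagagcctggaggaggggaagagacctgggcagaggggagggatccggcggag

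**Figure D4:**
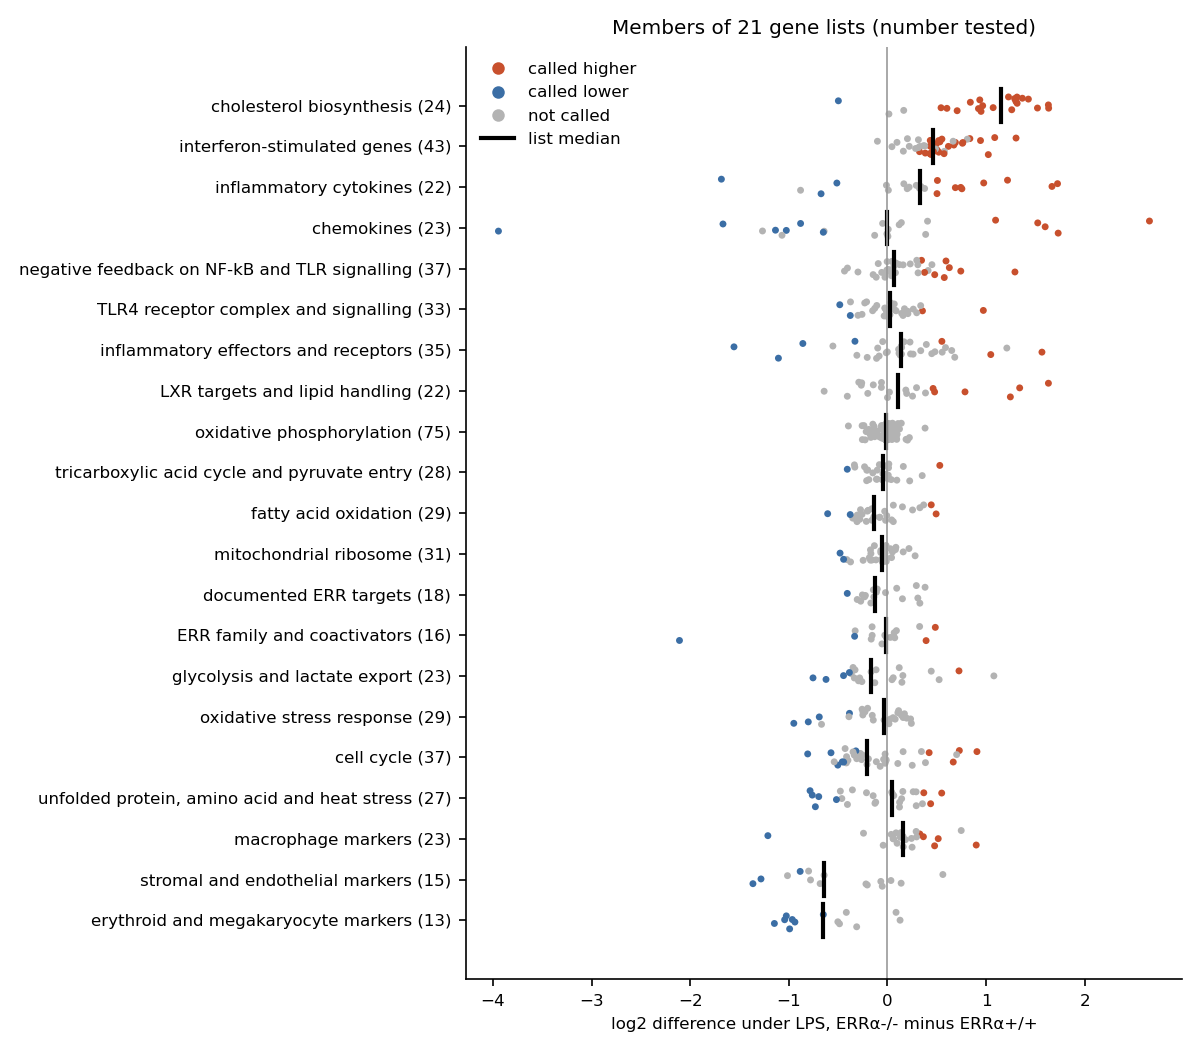
Log2 difference under LPS (x axis) of every tested member of 21 gene lists, with the number tested in brackets; red, blue and grey points are members called higher, called lower and not called, and black bars are list medians. Cholesterol biosynthesis lies furthest to the right with a median of 1.15, oxidative phosphorylation is centred at -0.02 with no called member, and the erythroid and megakaryocyte and the stromal markers lie to the left.

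Both genes of the first enzyme of glutathione synthesis fell. Of 29 oxidative stress genes 0 rose and 4 fell (13.8%), against 6.4% and 7.11% of all genes, with a median of -0.03. Gclc, the catalytic subunit of the enzyme that starts glutathione synthesis, stood at 4.73, 3.18 and 3.21 in ERRα+/+ and at 3.56, 2.41 and 2.30 in ERRα-/- cells, and fell by 0.95 ± 0.10 (adjusted p = 0.011). Its partner Gclm fell by 0.80 ± 0.12, the sulfiredoxin gene Srxn1 by 0.69 ± 0.13 and the thioredoxin reductase gene Txnrd1 by 0.38 ± 0.09. Slide 1 was high in both genotypes for all 4, and each was lower in 3 of 3 pairs. With the replicate block 2 of the 4 remained called. Nfe2l2, the gene of the factor NRF2 (0.08), its target Nqo1 (-0.67) and Hmox1 (0.03) were not called. The antioxidant response motif TGACNNNGC, also added later, was found in 7 of 22 windows of this list (31.8%) and in 16.8% of all windows. Within the list it lay in 3 of the 3 windows of fallen members and in 4 of 19 of those not called (21.1%). The bases before the start sites of Gclm (chr3:122245307-122245556, plus strand) and Txnrd1 (chr10:82858956-82859205, plus strand) show it in capitals, in both cases on the opposite strand.
Gclm: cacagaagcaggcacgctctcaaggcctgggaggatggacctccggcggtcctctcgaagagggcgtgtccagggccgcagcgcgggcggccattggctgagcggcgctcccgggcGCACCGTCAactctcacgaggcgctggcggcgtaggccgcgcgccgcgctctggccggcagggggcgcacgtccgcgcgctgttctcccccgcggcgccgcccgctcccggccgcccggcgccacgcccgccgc
Txnrd1: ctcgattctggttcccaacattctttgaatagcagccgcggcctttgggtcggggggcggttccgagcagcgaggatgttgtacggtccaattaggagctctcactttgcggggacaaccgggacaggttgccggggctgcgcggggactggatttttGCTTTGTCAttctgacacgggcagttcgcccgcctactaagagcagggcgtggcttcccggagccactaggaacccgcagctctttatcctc

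Of 27 genes of the unfolded protein, amino acid and heat stress responses 3 rose (11.1%) and 5 fell (18.5%), with a median of 0.04. Over all genes 6.4% rose and 7.11% fell. The endoplasmic reticulum genes Xbp1 and Hspa5 rose by 0.44 ± 0.09 and 0.37 ± 0.08 and the heat shock gene Hspa1a by 0.55 ± 0.08. Eif2ak3, which encodes the stress kinase PERK, fell by 0.78 ± 0.08, the asparagine synthetase gene Asns by 0.76 ± 0.10, Hspb1 by 0.73 ± 0.11 and Chac1, a glutathione-degrading enzyme gene, by 0.70 ± 0.16. Asns stood at 4.17, 5.98 and 6.10 in ERRα+/+ and at 3.66, 5.17 and 5.14 in ERRα-/- cells, lower in 3 of 3 pairs. The calls of Hspa5 and Chac1 ended after quantile normalization (adjusted p = 0.0703 and 0.0674).

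Of 37 cell cycle genes 4 rose (10.8%) and 6 fell (16.2%), against 6.4% and 7.11% of all genes, with a median of -0.21. The risen ones included Cdt1, the licensing factor of replication (0.73 ± 0.08), Mcm10 (0.42 ± 0.08), the thymidylate synthase gene Tyms (0.67 ± 0.15) and the spindle gene Tpx2 (0.91 ± 0.18). Among the fallen ones were the mitotic genes Bub1b (-0.81 ± 0.17), Bub1 (-0.57 ± 0.09), Prc1 (-0.50 ± 0.10) and Kif20a (-0.46 ± 0.09), and also Ccna2 (-0.44 ± 0.09), a cyclin of S and G2 phase. Of 29 apoptosis genes and p53 targets 4 rose (13.8%), among them the anti-apoptotic Bcl2l1 (0.62 ± 0.08), Mdm2 (0.59 ± 0.10) and Casp8 (0.50 ± 0.08), and 2 fell (6.9%, near the share of all genes), Sesn1 (-0.78 ± 0.08) and Tnfrsf10b (-0.47 ± 0.10), with a median of 0.09. Quantile normalization ended the calls of Tyms, Bub1b, Casp8 and Tnfrsf10b.

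Of 16 alternative activation genes 2 rose (12.5%) and 1 fell (6.25%), against 6.4% and 7.11% of all genes, with a median of 0.12. Pparg, the nuclear receptor of lipid-loaded and alternatively activated macrophages, stood at 2.07, 1.83 and 1.99 in ERRα+/+ and at 2.62, 2.54 and 2.67 in ERRα-/- cells, without overlap, and rose by 0.65 ± 0.09 (adjusted p = 0.0164). Klf4 rose by 0.34 ± 0.07 and Ppard fell by 0.30 ± 0.07. Autophagy and lysosome genes numbered 43, with 2 falls (4.65%, below the share of all genes), 0 rises and a median of 0.03. The falls were Gabarapl1 (-0.38 ± 0.08) and Tfeb, the master regulator of lysosome genes (-0.38 ± 0.09). Of 12 genes of MHC class II presentation 0 fell and 1 rose (8.33%, near the share of all genes). The risen one was the ubiquitin ligase gene Marchf1 (0.51 ± 0.07, with a further probe at -0.08). The median of this list was 0.16, but it was 0.74 on slide 1 and -0.22 on slide 2.

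The cultures carried the macrophage programme in both genotypes. All macrophage markers on the array, 23 of 24 listed, were measurable, and their summed linear level relative to the 75th percentile was 3397 to 4247 on the ERRα+/+ and 3712 to 4864 on the ERRα-/- LPS arrays. Of these 23, 5 rose (21.7%) and 1 fell (4.35%), against 6.4% and 7.11% of all genes. The Fc receptor gene Fcgr1 rose by 0.90 ± 0.12, Aif1 by 0.51 ± 0.12, the efferocytosis receptor gene Mertk by 0.48 ± 0.10 and Maf by 0.36 ± 0.08, while Adgre1 (0.06) and Csf1r (0.14) were not called. The fallen one was Cebpa, a transcription factor of the myeloid lineage, which went from 1.81, -0.36 and -0.25 to 0.48, -1.35 and -1.57 (-1.21 ± 0.09, adjusted p = 0.0083). It was lower in 3 of 3 pairs, although the arrays of slide 1 overlapped with those of slide 2.

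Markers of megakaryocytes and red cells numbered 13, of which 7 fell (53.8%, against 7.11% of all genes) and 0 rose, with a median of -0.65. Their summed level was 202.9 to 272 on the ERRα+/+ and 134.7 to 143.8 on the ERRα-/- arrays. All 7 fallen members had arrays without overlap, where 7.39% of all genes lay wholly below. The platelet glycoprotein genes Gp1ba, Gp9 and Itga2b fell by 1.15 ± 0.12, 1.04 ± 0.12 and 0.99 ± 0.10, and Gp1ba stood at 1.66, 2.07 and 1.91 against 0.79, 0.62 and 0.80. The haemoglobin genes were not called. Under PBS 9 of the 13 fell. In cultures measured in bulk, fewer cells of a type and less RNA per cell cannot be told apart, and the part of such cells in the falls of Ppbp and Pf4 was not tested.

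Shares of the lists that follow stand against the 6.4% of all genes called higher and the 7.11% called lower. Of 15 stromal and endothelial markers 0 rose and 3 fell (20%), with a median of -0.64. Their summed levels were 49.7 to 73.51 on the ERRα+/+ and 35.63 to 59.57 on the ERRα-/- arrays. The 3 fallen markers were Col4a1 (-1.36 ± 0.16), Fn1 (-1.28 ± 0.12) and Sparc (-0.88 ± 0.16), which encode matrix proteins. Of 13 osteoclast markers the fusion gene Dcstamp (-1.06 ± 0.12), Itgb3 (-1.0 ± 0.13, with a further probe at 0.02) and Mmp9 fell (23.1%) and 0 rose. Of 12 dendritic cell markers 2 rose (16.7%) and 1 fell (8.33%), with a median of 0.73 on slide 1 and -0.18 on slide 2. Itgax, the gene of CD11c, fell from 5.06, 3.04 and 2.98 to 3.81, 1.56 and 1.31 (-1.47 ± 0.11, adjusted p = 0.0082), while Bst2 (0.76 ± 0.16) and Tcf4 (0.49 ± 0.07) rose. Of 9 mast cell and basophil markers 0 rose and 1 fell (11.1%), with a median of 0.81 on slide 1 and -0.55 on slide 2. The fallen one was Gata1, which megakaryocytes and erythroid cells also use (-1.03 ± 0.13). Of 9 lymphocyte markers 0 fell and 1 rose (11.1%), the kinase gene Lck (0.98 ± 0.13). Their median was 0.69 on slide 1 and -0.07 on slide 2. The summed levels on the ERRα+/+ and ERRα-/- arrays were 276.4 to 432.7 and 238.9 to 370 for the osteoclast markers, and 371 to 623.1 and 492.2 to 733.8 for the dendritic cell markers. They were 11.8 to 57.98 and 18.5 to 59.65 for the mast cell markers, and 26.02 to 30.15 and 35.21 to 41.13 for the lymphocyte markers. A summed level weighs the brightest members most. Of the 9 lymphocyte markers 8 lay above 0 on slide 1 but 3 on slide 2, and within slide 2 2 were called higher and 3 lower. Of 15 neutrophil markers 0 were called (limma, also 0 at an unadjusted p under 0.05), with a median of 0.83 on slide 1 and -0.59 on slide 2, and their summed level was 450.9 to 909.9 on the ERRα+/+ and 720.1 to 814.8 on the ERRα-/- arrays. Whether other cells in the cultures set any of the differences above was not tested. Of the 4 sex and strain check genes measured, 0 were called, and Ddx3y differed by -0.51 and Wdfy1 by 0.38.

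The difference between genotypes under LPS was finally set against that under PBS, with all 12 arrays in 1 fit and a slide term under each treatment. Under PBS 452 genes rose (3.69%) and 555 fell (4.53%), 8.22% in all. The same fit called 853 genes higher and 1000 lower under LPS, but the shares that follow use the LPS calls of the fit on the 6 LPS arrays. Of those risen under LPS 190 (24.2%) were also risen under PBS, which is 42.0% of the PBS rises, and of the fallen ones 210 (24.1%, and 37.8% of the PBS falls). In opposite directions 22 genes were called. The test of the difference itself called 112 genes above 0 (0.914%) and 79 below 0 (0.645%), 1.56% in all. With the replicate block the counts were 8 and 1, within slide 2 they were 354 and 371, and with 1 array left out the counts ran from 12 to 224 and from 2 to 240.

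Ccl2 and Ccl7 differed between genotypes under LPS far more than under PBS. Ccl2 differed by -0.09 under PBS and by 1.52 under LPS, and the difference of 1.61 passed the test (adjusted p = 0.00167). Ccl7 differed by 0.03 under PBS, and the difference between treatments was 2.62 (adjusted p = 0.019). Dusp1 (-0.23 under PBS, 1.52 between treatments, adjusted p = 0.00738), Irf8 (0.05 and 0.97), Pparg (-0.30 and 0.95) and Pfkfb3 (0.02 and 0.71) followed the same order. Cebpa fell under both treatments, by 0.40 under PBS and more under LPS (-0.81 between treatments, adjusted p = 0.0246). Dnm1 (7.26 under PBS), Ccl12 (2.74), Cd59a (-1.46) and Itgax (-1.60) were called under PBS in the same direction as under LPS. Their differences between treatments were not called.

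For 4 of the named genes the sign of the called difference turned. With the replicate block the LPS call ended for 3 of them, Edn1 (adjusted p = 0.0641), Trp53i11 (0.0651) and A930003A15Rik (0.0777). Pgm5, which encodes a phosphoglucomutase-like protein, was lower in ERRα-/- cells under PBS (-1.37) and higher under LPS (0.92), and Trp53i11, a p53-induced gene, did likewise (-1.26 and 0.96). A930003A15Rik went from 1.81 to -0.62. Edn1 went from -1.57 to 1.57, but its probe was well above background on 0 of 3 ERRα-/- PBS arrays, so the size of its PBS difference is only a bound. Vcam1 was lower by 2.32 under PBS and by less under LPS (1.46 between treatments, adjusted p = 0.0487). Rasgrf1, a Ras exchange factor gene, fell under LPS by 1.77 ± 0.12 and was well above background on no PBS array, and Aoc1, a diamine oxidase gene, fell by 1.82 ± 0.28 with 1 PBS array well above background.

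**Figure D5:**
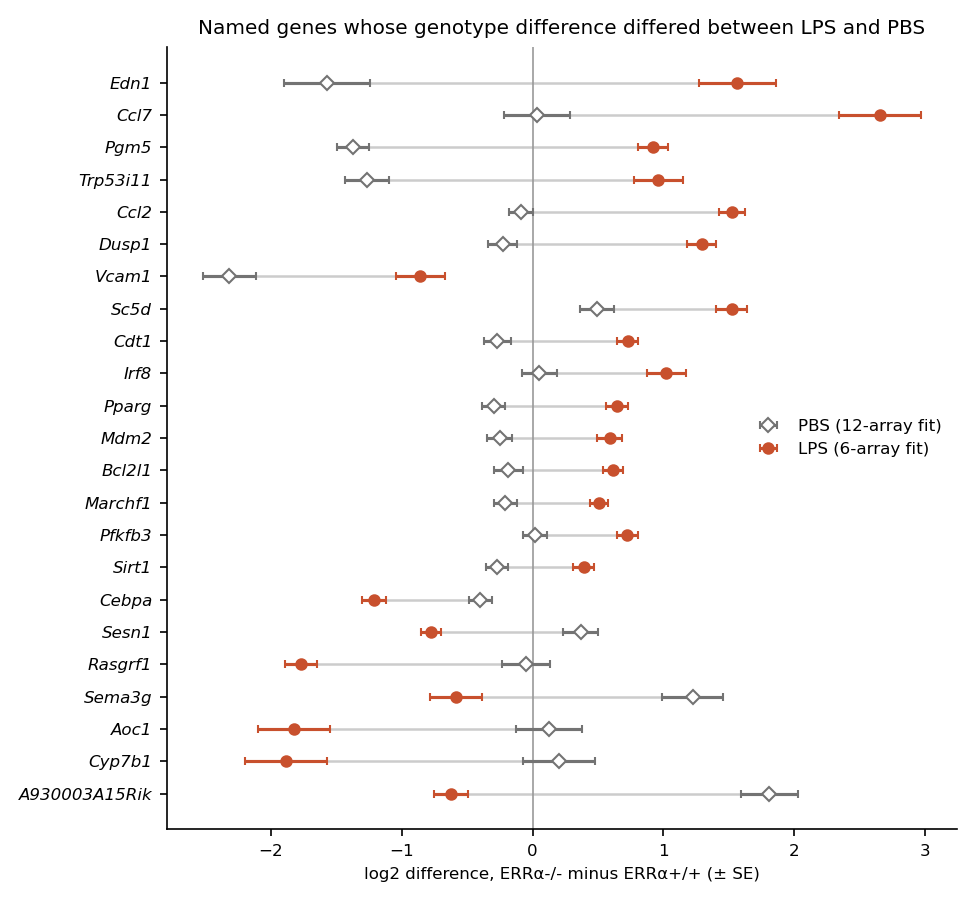
Log2 difference between ERRα-/- and ERRα+/+ cells (x axis, ± SE) under PBS (open diamonds) and under LPS (filled circles) for 23 named genes whose difference between treatments passed the test. In the upper 16 genes the LPS value lies to the right of the PBS value, and in the lower 7 to its left; Edn1, Pgm5, Trp53i11 and A930003A15Rik were called on opposite sides of 0, and for Edn1, Rasgrf1, Sema3g, Aoc1 and Cyp7b1 a group had no array well above background.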

How the data were processed

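The members and gene lists were chosen with earlier results of these data known. The deposited intensity values are, per the file headers, processed signals after background subtraction and detrending by Agilent Feature Extraction 11.5.1.1 (9.3.2.1 per the submitters' processing notes), with no normalization between arrays, and the deposited 0 or 1 flags come from the same software. The series' deposited value table equals the processed signal at 755712 of 755712 cells.

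From these, log2 signals of the 59305 non-control spots were taken minus the array's 75th percentile, after leaving out outlier-flagged spots, and spots of a probe were averaged. Probes well above background on all 3 arrays of a genotype were kept, and a gene was represented by its brightest probe over the 6 LPS arrays. 28172 probes without a gene name were set apart. The total signal gives no depth, and the number of arrays limits the precision. limma 3.58.1 in R 4.3.3 was fitted with genotype and slide on the 6 LPS arrays, with Benjamini-Hochberg adjustment over 12257 genes and a threshold of 0.05.

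Replicate numbers are shared between the genotypes in the labels. Deviations of same-numbered arrays correlated at 0.819, 0.728 and 0.68. The numbers paired the samples only in the counts over pairs and in the replicate block. The main fit held genotype and slide and did not pair by number. The support for pairing beyond the slide is weak: replicates 2 and 3 correlated with a differently numbered array at up to 0.651 and 0.591, and the difference between replicates 2 and 3 correlated at 0.216 between genotypes. The labels state no shared source. Named genes were Esrra and Tnfaip3, the 15 largest non-overlapping rises and falls, up to 4 called members per list and direction, and the genes with the largest called differences between treatments. Other list members were named after their values were seen. Promoter windows came from RefSeq, build GRCm38.p6, for 9844 genes. Alternatives covered the slide term, replicate block, normalization, background correction, filters, probes and each array left out. Some results that name certain genes are not reported here, in text or figures, although these genes stay in the list counts.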

Additional observations from a re-analysis of the deposited data

Results flagged for a closer look

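For 23 named genes the genotype difference under LPS differed from that under PBS by the test of the difference itself (limma, adjusted p under 0.05). The value given is the log2 genotype difference under LPS minus that under PBS. Among inflammatory and vascular genes it was 2.62 for Ccl7, 1.61 for Ccl2, 1.52 for Dusp1, 1.46 for Vcam1 and 0.97 for Irf8. Among metabolic genes it was 1.03 for Sc5d, 0.95 for Pparg, 0.71 for Pfkfb3 and 0.66 for Sirt1. For Pgm5, grouped with none of these, it was 2.29. Among genes of growth, survival and antigen presentation it was 2.23 for Trp53i11, 1 for Cdt1, 0.84 for Mdm2, 0.8 for Bcl2l1, 0.71 for Marchf1, -0.81 for Cebpa and -1.15 for Sesn1. For A930003A15Rik it was -2.43, with 2 of 3 arrays of each genotype well above background under PBS.

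For 5 genes at least 1 group had no array well above background, so the fitted value is not a measured size. It was 3.14 for Edn1 (0 of 3 ERRα-/- PBS arrays), -1.72 for Rasgrf1 (0 of 3 PBS arrays of each genotype) and -1.81 for Sema3g (0 of 3 ERRα+/+ PBS arrays, 2 of 3 ERRα-/- PBS arrays and 1 of 3 ERRα-/- LPS arrays). It was -1.95 for Aoc1 (0 of 3 ERRα+/+ and 1 of 3 ERRα-/- PBS arrays, 2 of 3 ERRα-/- LPS arrays) and -2.09 for Cyp7b1 (0 of 3 PBS arrays of each genotype and 0 of 3 ERRα-/- LPS arrays).

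Probes without a gene name were outside the comparisons above. Of 9469 such probes 72 were called between genotypes under LPS (0.76%), 59 higher and 13 lower in ERRα-/- cells.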

How the results depend on the processing

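Counts are of genes higher and lower in ERRα-/- cells under LPS. They were 0 and 0 with no slide term (731 at an unadjusted p under 0.05), 301 and 307 with the replicate block, 73 and 137 with all 12 arrays and 1 slide block, and 0 and 0 with no filter on dim probes (20887 genes, 3311 at an unadjusted p under 0.05). With replicates 2 and 3 averaged, an alternative added after seeing the data, they were 0 and 0. Leaving out 1 array gave 0 to 1094 higher and 0 to 1057 lower. Quantile normalization gave 597 and 975, which moved the share of higher calls from 47.4% to 38.0%.

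Counts of genes above and below 0 for the difference between treatments were 0 and 0 with no slide term (262 at an unadjusted p under 0.05), 0 and 0 with 1 shared slide term (850), 8 and 1 with the replicate block and 354 and 371 within slide 2. Leaving out 1 array gave 12 to 224 and 2 to 240. The cause of these shifts was not tested. Slc12a5 turned to 0.649 with the mean of all its probes, because its further probe differed by 2.75. After quantile normalization 22 named genes lost their call: Kynu, Klhl42, Actg2, Idh3a, Acaa1a, Acsl4, Edn1, Vcam1, Ifi44, Isg20, Tfeb, Tyms, Bub1b, Scd1, Hspa5, Chac1, Casp8, Tnfrsf10b, Aif1, Maf, Bst2 and Trp53i11. The replicate block ended the LPS call of these genes named in the text: Prm1, Htra4, Gm9733, Kynu, Klhl42, Actg2, Myd88, Ikbkg, Tlr8, Zfp36l1, Tnip3, Il1a, Cxcl5, Pf4, Cxcl9, Edn1, Casp4, Vcam1, Marco, Ifi44, Isg20, Ifnb1, Ifit1, Igtp, Scap, Idh3a, Pdk3, Cd36, Acads, Acaa1a, Acsl4, Mrps35, Mrpl12, Ncoa1, Sirt1, Tfb2m, Tpi1, Gpi1, Igf1r, Nhp2, Msrb2, Srxn1, Txnrd1, Xbp1, Hspa5, Hspa1a, Chac1, Mcm10, Tyms, Tpx2, Bub1, Prc1, Kif20a, Ccna2, Mdm2, Casp8, Tnfrsf10b, Klf4, Ppard, Gabarapl1, Tfeb, Aif1, Mertk, Maf, Bst2, Trp53i11 and A930003A15Rik.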
